A study of Rattus norvegicus with 6 samples.

Results

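The adrenergic receptors are the G protein-coupled receptors of noradrenaline and adrenaline. The genes described here are the alpha-1 receptors Adra1a, Adra1b and Adra1d, the alpha-2 receptors Adra2a, Adra2b and Adra2c, and the beta receptors Adrb1 and Adrb3. Every array probe whose only gene symbol in the platform annotation is one of these 8 names was taken, which gave 13 probes for 7 of the 8 genes, out of 33849 probes in the deposited series table. Adra2c was named only by 1 probe that is also annotated to Adra1d, and that probe was not used. Of the 7 genes, 5 had several probes and 2, Adra1b and Adrb1, had 1.

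Alpha-1 receptors act through the G protein Gq, which stimulates phospholipase C and raises intracellular calcium. Alpha-2 receptors act through Gi and Go, which inhibit adenylyl cyclase and reduce transmitter release, and beta receptors act through Gs, which stimulates adenylyl cyclase. In the brainstem these receptors lie on neurons and glia of the circuits that set sympathetic outflow and blood pressure, and alpha-2 agonists such as clonidine lower blood pressure in part by acting there.

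RNA came from cells cultured from the brainstem of 2 inbred rat strains, the spontaneously hypertensive rat (SHR), which develops high blood pressure, and the normotensive Wistar Kyoto rat (WKY), which serves as its control. Each strain had 3 single-colour CodeLink arrays, each hybridised with RNA from a pool of 3 culture dishes, and the labels give no treatment, age, litter, culture day or batch. The series text calls the 3 arrays of a strain biological replicates, but does not say that the cultures came from different animals, so p-values measure the spread between these pools. In a culture of mixed cells, fewer cells of a type and less RNA per cell cannot be told apart. The question addressed is whether the hypertensive strain's cultures carry more or less receptor transcript than the control's.

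No receptor probe passed the threshold, an adjusted p of 0.05 in limma's test over all 33249 probes with enough valid values. Of all those probes 0 passed as well, and 2545 had an unadjusted p under 0.05. The smallest adjusted p of a receptor probe was 0.349. Differences are given as SHR minus WKY on the log2 scale, on which 1 is a 2-fold difference. Over the 13 probes they had a median of 0.015, against -0.0099 over all probes, with 7 above 0 (48.4% of all probes were above 0) and 6 below. The 3 SHR values lay wholly apart from the WKY values at 2 of the 13 probes (15.4%), 1 of Adra1a and 1 of Adra2b, both with SHR above. This is close to the 13.8% of all probes at which the strains did not overlap, and 6.35% did so with SHR above. An unadjusted p under 0.05 occurred at the same 2 probes, against 7.65% of all probes, or 3.65% with SHR above.

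**Figure D1:**
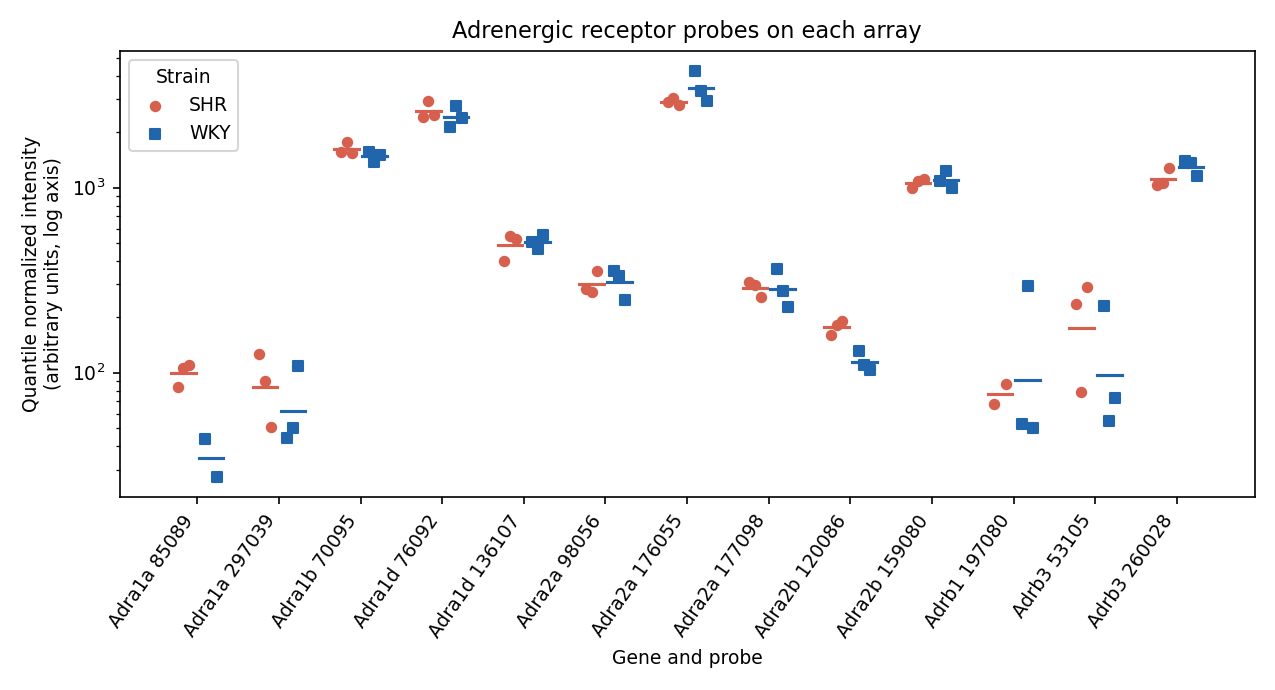
Quantile normalized intensity (log axis) of the 13 adrenergic receptor probes on each array, with SHR as circles, WKY as squares and a bar at the mean of the log2 values. The strains are separated at Adra1a probe 85089 and Adra2b probe 120086 and overlap at the other probes; 1 WKY entry of Adra1a probe 85089 and 1 SHR entry of Adrb1 are not above 0 and are not drawn.

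Among the alpha-1 receptors, the separated probe belonged to Adra1a, which mediates contraction of vessels and prostate and is also present in the brain. At probe 85089 the 3 SHR arrays gave 84.2, 105.6 and 110.7 intensity units. WKY 1 gave 43.8 and WKY 3 gave 27.5, while the WKY 2 entry of the series table was not above 0 and was left out. Every SHR value thus lay above both WKY values. The log2 signal of SHR was 6.64 ± 0.21 (SD, n = 3) and that of WKY was 5.12 ± 0.48 (SD, n = 2). They differed by 1.52 ± 0.26 (SE), or 2.87-fold with a 95% interval of 1.83 to 4.50. It did not pass (limma unadjusted p = 0.00155, adjusted p = 0.349). The exact two-sided permutation test gave p = 0.10, the smallest that 3 against 2 values allow.

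The WKY 2 spot was not empty. In the per-sample tables, which are not normalized between arrays, its intensity was 23.4, beside 44.0 and 32.8 for the other WKY arrays and 77.4, 103.9 and 111.6 for SHR. With those intensities all 6 arrays entered and the groups again did not overlap, with a difference of 1.58 ± 0.28. All of these are dim spots, and 5.72% of the tested probes had a mean signal as low as this one or lower.

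The other Adra1a probe, 297039, was also dim and did not repeat the separation. It measured 125.8, 90.2 and 50.8 units in SHR and 44.6, 50.1 and 109.1 in WKY. WKY 3 lay above 2 of the SHR arrays. Its difference was 0.41 ± 0.45 with a 95% interval of -0.68 to 1.51, and it ran from 0.12 to 0.82 without single arrays. Without WKY 3 (0.82) the groups did not overlap, but SHR 3 lay only just above WKY 2. Both probes are annotated to the same Adra1a transcript, and the reason why they differ was not tested.

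Adra1b, a receptor of brain, liver and heart, had 1 probe with a bright signal. It measured 1563.5, 1772.0 and 1536.2 units in SHR against 1564.4, 1372.5 and 1492.6 in WKY. SHR 2 was the highest array, and WKY 1 lay above SHR 1 and SHR 3. The difference of 0.14 ± 0.13 did not pass (limma adjusted p = 0.799), and its 95% interval, 0.885- to 1.37-fold, contains no 2-fold change.

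Adra1d, a receptor of large arteries that is also found in brain, had 2 probes. Probe 76092 gave 2416.8, 2925.3 and 2464.1 units in SHR and 2131.1, 2752.7 and 2372.8 in WKY. In each strain array 2 was the highest, and the ranges overlapped, with a difference of 0.11 ± 0.16. Probe 136107 gave 403.7, 545.2 and 525.9 in SHR and 507.0, 466.7 and 551.5 in WKY, for a difference of -0.058 ± 0.16. The correlation of the log2 signals of these probes over the 6 arrays was 0.091. SHR 2 was high at both, but WKY 3 was the highest array at probe 136107 and among the lower ones at probe 76092.

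The alpha-2 receptors include Adra2a, the autoreceptor that limits noradrenaline release and the main target of clonidine. Its brightest probe, 176055, annotated to an expressed sequence tag, measured 2891.7, 3032.0 and 2789.9 units in SHR and 4262.9, 3314.3 and 2918.2 in WKY. WKY 1 stood highest, WKY 3 lay below SHR 2, and the 3 SHR arrays were close together, with an SD of 0.06 against 0.28 in WKY. The difference was -0.25 ± 0.17 (limma adjusted p = 0.735), and it was -0.099 without WKY 1.

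Probe 98056 of Adra2a gave 283.6, 273.7 and 353.1 units in SHR and 353.1, 334.8 and 247.1 in WKY. Probe 177098 gave 310.6, 296.5 and 255.6 in SHR and 362.7, 277.5 and 226.7 in WKY. Both of these probes are annotated to the RefSeq transcript. Among the WKY arrays, WKY 1 was the highest and WKY 3 the lowest at all 3 probes of Adra2a. The strain differences at these other probes were -0.031 ± 0.19 and 0.015 ± 0.20. Correlations between the 3 probes over the 6 arrays were 0.45, 0.49 and 0.73, given as a description over arrays that share their normalization.

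Adra2b, a receptor of vascular muscle and of a few brain regions, showed the second separated probe. Probe 120086, annotated to an expressed sequence tag, gave 160.7, 182.1 and 189.9 units in SHR and 130.6, 110.2 and 103.0 in WKY. All SHR arrays lay above all WKY arrays. The log2 signal of SHR was 7.47 ± 0.13 (SD, n = 3) and that of WKY was 6.83 ± 0.18 (SD, n = 3). They differed by 0.64 ± 0.15 (SE), or 1.55-fold with a 95% interval of 1.21 to 1.99. This did not pass (limma unadjusted p = 0.00453, adjusted p = 0.496), and the exact two-sided permutation test gave p = 0.10, the smallest possible with 3 against 3.

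The second Adra2b probe, 159080, is annotated to the RefSeq transcript. It measured 989.3, 1090.2 and 1117.8 units in SHR and 1079.4, 1222.9 and 997.3 in WKY, for a difference of -0.042 ± 0.14. WKY 2 was the highest array and SHR 1 the lowest, and the ranges overlapped. Its 95% interval ran from 0.773- to 1.22-fold, and that of probe 120086 began at 1.21-fold, so the intervals were nearly separate in this fit. With limma's intensity trend and robust prior the SE of probe 120086 was 0.24 rather than 0.15, so this separation depends on the fit. The correlation between these probes over the 6 arrays was -0.044, and whether both report one transcript was not tested.

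**Figure D2:**
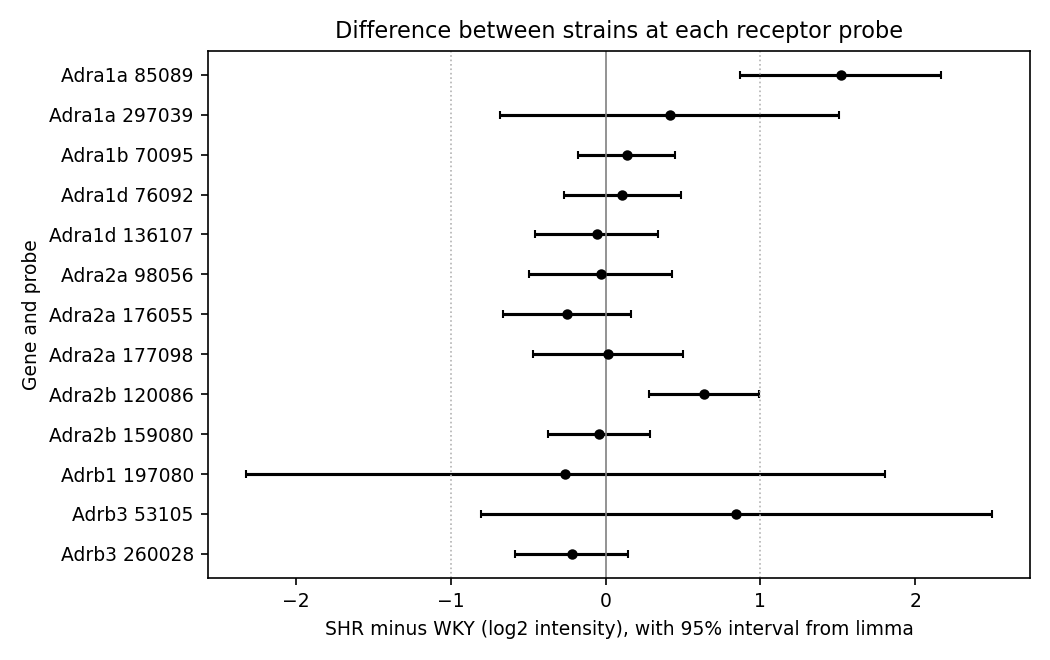
Difference between strains (SHR minus WKY, log2 intensity) at each adrenergic receptor probe, with the 95% interval from limma; dotted lines mark 2-fold. In the reported fit the interval stays inside 2-fold at 9 probes and reaches past it at Adra1a probes 85089 and 297039, Adrb1 and Adrb3 probe 53105.

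Of the beta receptors, Adrb1 is the receptor through which noradrenaline raises heart rate, and it is also present in neurons and astrocytes. Its 1 probe gave 67.7 and 86.9 units on SHR 1 and SHR 3 and an entry not above 0 on SHR 2, where the per-sample intensity was -6.66. In WKY it gave 52.9, 292.9 and 50.1. WKY 2 alone stood far above every other array, and the SD within WKY was 1.45. The difference of -0.26 ± 0.82 had a 95% interval of 0.199- to 3.49-fold. It became 0.58 without WKY 2, a fit that also lacks SHR 2, so its direction among the values kept rested on WKY 2. With SHR 2 entered as 0 and 50 units added to every value before log2, the difference was -0.71.

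Adrb3, the beta receptor of adipose tissue, had 2 probes that differed in direction. The dim probe 53105 gave 234.8, 78.5 and 290.5 units in SHR and 228.5, 55.2 and 73.1 in WKY. Both strains held arrays near the top and near the bottom of this range, and the difference was 0.85 ± 0.69. Without single arrays it ran from 0.44 (without WKY 2) to 1.46 (without WKY 1), and the groups did not overlap without WKY 1 or without SHR 2 (1.42). The brighter probe 260028 gave 1026.8, 1057.1 and 1270.9 in SHR and 1391.9, 1358.6 and 1149.6 in WKY, for a difference of -0.22 ± 0.15 (limma adjusted p = 0.739). At that probe SHR 3 lay above WKY 3, and the other SHR arrays lay below all WKY arrays.

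The spread between arrays of a strain varied with the signal. The 5 receptor probes dimmer than 75% of the tested probes (both of Adra1a, and 1 each of Adra2b, Adrb1 and Adrb3) had readings up to 292.9 units. Their SD within strains was 0.15 to 1.05. The other 8 probes, with 226.7 to 4262.9 units, had an SD of 0.10 to 0.26, differences from -0.25 to 0.14, no separated groups and a smallest unadjusted p of 0.189 in limma. Both separated probes were among the 5 dim ones. The within-strain SD of Adra2b probe 120086 was 0.15, against a median of 0.39 among the 1000 probes closest to it in signal, and that of Adra1a probe 85089 was 0.37 against 0.50. Spot signal depends on the probe, so these levels do not rank the receptors by amount of transcript.

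**Figure D3:**
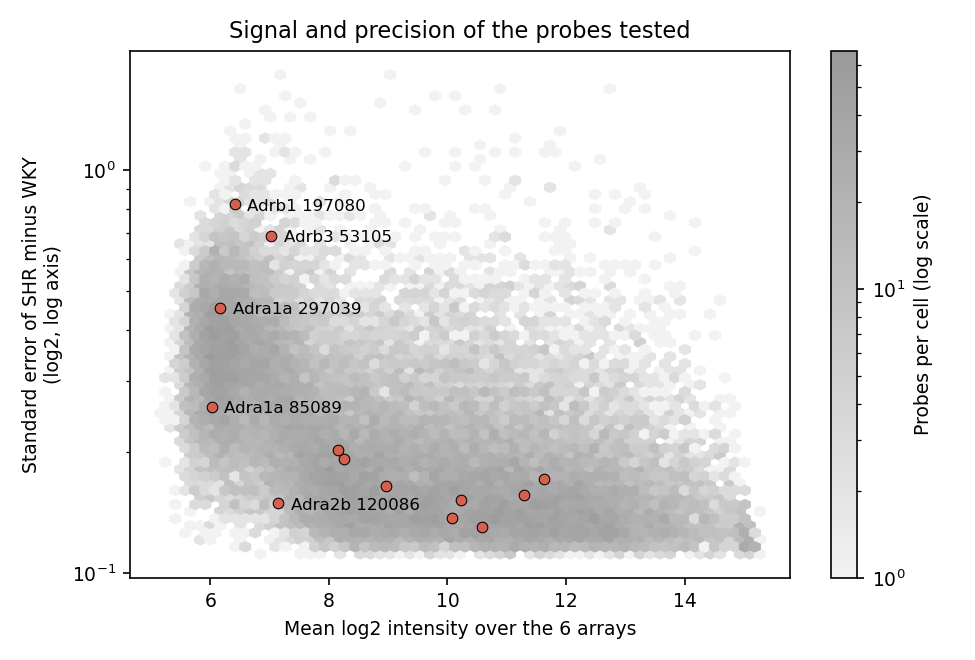
Standard error of the strain difference (log axis) against mean log2 intensity for all probes tested, in grey by number of probes, with the 13 adrenergic receptor probes as points and the 5 dim ones named. Adrb1 and Adrb3 probe 53105 have the largest errors of the receptor probes, 0.82 and 0.69, and Adra2b probe 120086 has a small error (0.15) for its dim signal.

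Genes that act with the receptors were taken from lists of noradrenaline supply, of the G protein arms of each receptor class and of desensitisation. None of the measured genes in these lists passed over all probes in limma, and 6.84% of all named genes had an unadjusted p under 0.05 at their brightest probe, which is the probe counted here. For noradrenaline supply, 12 of 13 genes were measured, with 8 above 0 (against 49.8% of all named genes), a median of 0.064 and 0 genes under an unadjusted p of 0.05. Th, tyrosine hydroxylase, which catalyses the rate-limiting step of catecholamine synthesis, overlapped between strains, with 1296.0, 1523.6 and 1171.4 units in SHR and 1278.3, 1367.1 and 1293.6 in WKY. Dbh, which converts dopamine to noradrenaline, gave 749.0, 742.2 and 713.7 in SHR and 665.7, 694.8 and 711.1 in WKY. Its groups did not overlap, but the difference was 0.090 ± 0.11. Slc6a2, the noradrenaline transporter, gave 339.1, 396.2 and 357.8 in SHR and 415.3, 415.1 and 404.1 in WKY, for a difference of -0.18 ± 0.12 (limma adjusted p = 0.739). Its second, dim probe differed by -0.34 ± 0.15, and at both probes all SHR arrays lay below all WKY arrays.

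The Gq arm of the alpha-1 receptors had 14 of 18 genes measured, 6 above 0 and 8 below, with a median of -0.071. An unadjusted p under 0.05 occurred at 2 genes with SHR above and 1 with SHR below. Rgs4, a regulator that speeds GTP hydrolysis on Gq and Gi proteins and so shortens receptor signals, gave 755.3, 668.8 and 758.6 units in SHR and 432.3, 430.7 and 460.0 in WKY. Its second probe gave 660.3, 626.5 and 743.2 in SHR and 345.9, 384.0 and 372.2 in WKY. At both Rgs4 probes every SHR array lay well above every WKY array. The differences were 0.72 ± 0.12 (1.65-fold) and 0.88 ± 0.13 (1.84-fold), which did not pass over all probes (limma adjusted p = 0.297 and 0.244).

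Itpr1, a calcium channel of the endoplasmic reticulum that opens on inositol trisphosphate, gave 1680.4, 1221.1 and 1527.8 units in SHR and 1209.2, 975.6 and 1050.1 in WKY. Its difference was 0.45 ± 0.17 (limma adjusted p = 0.627), with SHR 2 just above WKY 1. Gna11, a G protein alpha subunit of the Gq class, gave -0.44 ± 0.18 at its brightest probe and -0.33 ± 0.17 at the other (limma adjusted p = 0.646 and 0.685), with overlapping groups at both.

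The Gi and Go arm of the alpha-2 receptors had 16 of 17 genes measured, 7 above 0 and 9 below, with a median of -0.12. Cacna1b, the pore of the N-type calcium channel that alpha-2 receptors inhibit at nerve endings, was the 1 gene with an unadjusted p under 0.05. It gave 108.9, 108.6 and 166.8 units in SHR and 201.1, 172.8 and 207.9 in WKY, for a difference of -0.62 ± 0.21 (limma adjusted p = 0.578). All SHR arrays lay below the WKY arrays, with SHR 3 near WKY 2.

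In the Gs and cyclic AMP arm of the beta receptors, 24 of 27 genes were measured, 9 above 0 and 15 below, with a median of -0.063. Adcy4 and Adcy8, adenylyl cyclases that make cyclic AMP, were the 2 genes with an unadjusted p under 0.05. Adcy4 gave 1412.5, 1619.9 and 1429.4 units in SHR and 1691.6, 2238.4 and 2091.6 in WKY, for a difference of -0.43 ± 0.16. Adcy8, the calcium-stimulated form found in neurons, gave 512.2, 535.3 and 478.3 in SHR and 594.2, 619.7 and 665.9 in WKY, for a difference of -0.30 ± 0.12. Both had all SHR arrays below all WKY arrays, and neither passed (limma adjusted p = 0.609 and 0.647).

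Receptor desensitisation and trafficking genes had 12 of 14 measured, 4 above 0 and 8 below, with a median of -0.19. Grk3, a kinase that phosphorylates occupied receptors so that arrestins bind, gave 160.9, 188.0 and 122.3 units in SHR and 250.4, 218.1 and 261.0 in WKY. All SHR arrays were the lower ones, with a difference of -0.65 ± 0.19 (limma adjusted p = 0.558), while the second Grk3 probe gave -0.092 ± 0.66.

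**Figure D4:**
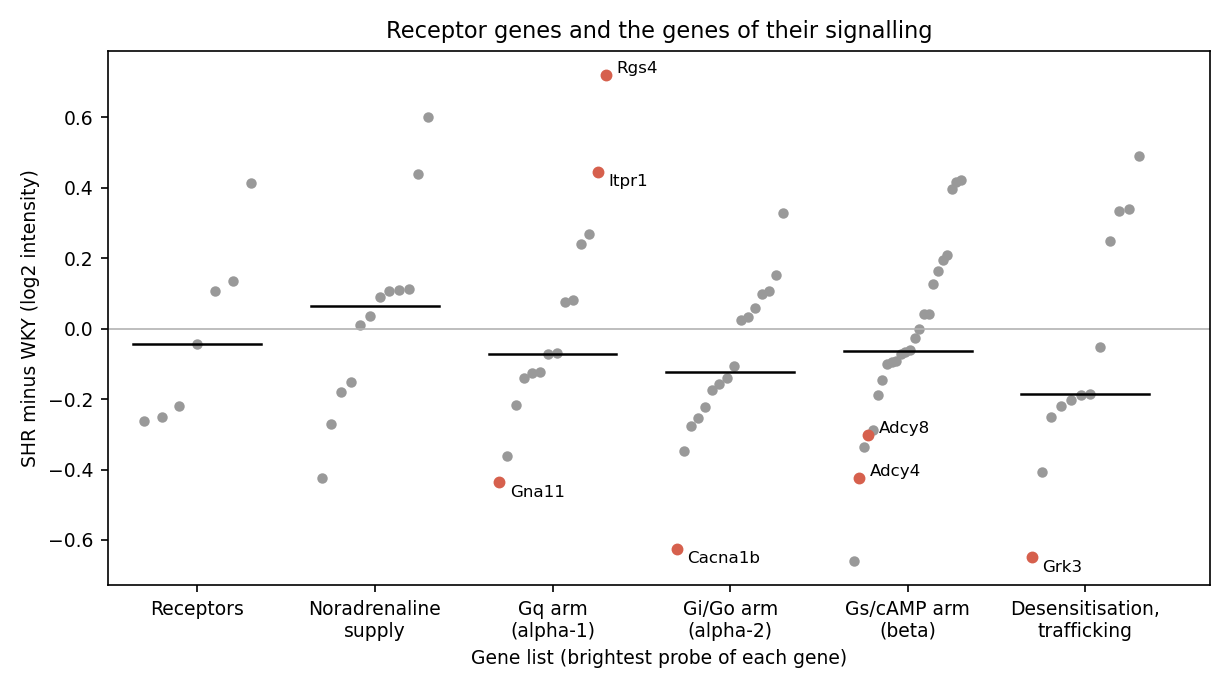
Strain difference (SHR minus WKY, log2 intensity) at the brightest probe of each measured gene, for the adrenergic receptors and 5 lists of genes that act with them; black bars are list medians and red points have an unadjusted p under 0.05 in limma, none of which passed after adjustment. Rgs4 and Itpr1 lie above 0 and Gna11, Cacna1b, Adcy4, Adcy8 and Grk3 below.

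The cultures held transcripts of several cell types, and some marker lists differed in summed signal or in median between the strains. For noradrenergic and adrenergic neurons, 7 of 10 markers were measured, and their summed intensity was 5757 to 6083 units in SHR and 5651 to 5890 in WKY. That of 9 of 13 neuron markers was 33937 to 39907 in SHR and 33261 to 37273 in WKY, and that of 11 of 12 astrocyte markers was 220000 to 226966 and 219199 to 230101, so these 3 lists overlapped. Fibroblast and meningeal markers (12 of 13) summed to 76841 to 80277 in SHR and 66082 to 75034 in WKY, with no overlap, and 9 of these 12 genes were above 0 with a median difference of 0.35. Oligodendrocyte lineage markers (13 of 14) summed to 78564 to 157955 in SHR and 148977 to 173450 in WKY, which overlapped. The overlap came from SHR 2 (157955), while SHR 1 (87889) and SHR 3 (78564) lay below every WKY array. Of these 13 genes 12 were below 0, with a median of -0.87. Ependymal and choroid plexus markers (10 of 10) summed to 43359 to 72092 and 34958 to 55061, with 8 genes above 0 and a median of 0.61. Microglia and macrophage markers (12 of 12) summed to 251947 to 255156 and 255456 to 268911, only just without overlap, with 9 genes below 0 and a median of -0.072. At the brightest probes, 0 of these 12 genes had groups that did not overlap. Endothelial markers (9 of 10) summed to 7608 to 8955 and 6759 to 7678, with 7 genes above 0 and a median of 0.18. Smooth muscle and pericyte markers (10 of 11), a cell type rich in alpha-1 receptors, summed to 26865 to 30615 and 25284 to 36176, with 7 genes below 0 and a median of -0.26. An unadjusted p under 0.05 in limma, found at 6.84% of all named genes, occurred at 5 fibroblast and meningeal markers, all with SHR above. It occurred at 3 oligodendrocyte lineage markers, all with SHR below. Of the ependymal and choroid plexus markers, 2 had it with SHR above and 1 with SHR below. The remaining marker lists had at most 1 such gene each. No marker passed over all probes in limma. At the brightest probes 2 ependymal and choroid plexus markers (Aqp1 and Clic6, named after their values were seen) had an entry at or below 0, and no marker of the other lists did. The part of cell makeup in the Adra1a and Adra2b values was not tested.

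The genes whose pattern over the 6 arrays was most like that of a receptor were listed for the 3 receptor genes with the brightest probes, by Pearson correlation of log2 signals over 6 arrays. Adra2a probe 176055 was closest to Smox, a spermine oxidase gene (0.98), and to Cldn12, a claudin gene (0.98). Adra1d probe 76092 was closest to Hsd17b3, a steroid dehydrogenase gene (0.998), and to Arc, an activity-induced neuronal gene (0.99). Adra1b was closest to Slc25a27, a mitochondrial carrier gene (0.99), and to Dhh, a hedgehog ligand gene (0.99). With 15902 to 15904 candidate probes and 6 arrays, between 16 and 23 candidates exceeded 0.95 for each receptor, so these values describe the search more than the genes.

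The directions of 8 of the 13 receptor probes held in every other setting in which they could be computed, and those of 5 turned. Adra1a probe 85089 stayed between 0.82 and 1.86 and Adra2b probe 120086 between 0.47 and 0.73. Their precision moved more, and with an intensity trend and robust prior their SEs were 0.41 and 0.24, against 0.26 and 0.15 as reported. The turning probes were Adra1d 136107, Adra2a 98056 and 177098, Adra2b 159080 and Adrb1, all of them with differences smaller than their standard error. The smallest adjusted p of a receptor probe in any setting was 0.297, so none passed in any of them.

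**Figure D5:**
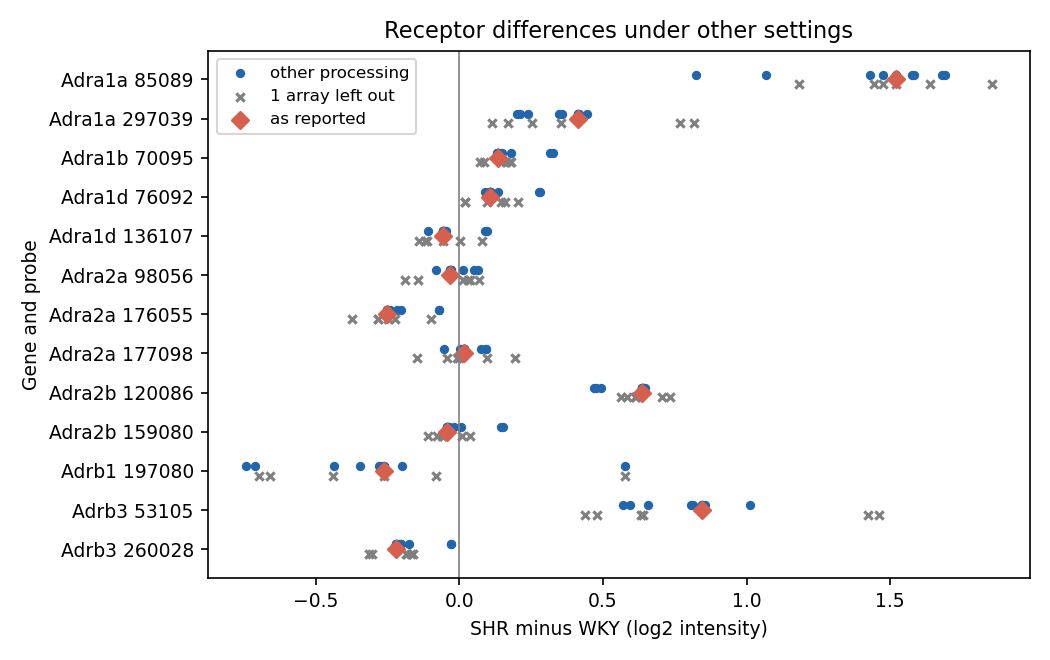
Strain difference (SHR minus WKY, log2 intensity) at each adrenergic receptor probe as reported (diamonds), with other processing (dots) and with 1 array left out (crosses). Values of Adra1a probe 85089 and Adra2b probe 120086 all lie above 0, from 0.82 to 1.86 and from 0.47 to 0.73, and those of Adrb1 spread from -0.74 to 0.58.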

How the data were processed

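Per the series text, spot intensities were read and background-subtracted by the authors in CodeLink Expression Analysis software; they excluded measurements under the negative controls plus 2 SD and normalized arrays by quantiles. The sources used here name neither versions nor a genome build. Intensity was deposited in 2 forms: per-sample tables, not normalized between arrays (medians 439 to 571 units), and a quantile normalized series table, used here. A code of -9999 entered that normalization, so 615 entries per column are not above 0. All entries not above 0 were treated as missing before the log2 step.

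Probes lacking at most 1 of the 6 values (33249 of 33849) were tested together with limma 3.58.1 (lmFit, eBayes, R 4.3.3), with Benjamini-Hochberg adjustment. Symbols came from the platform annotation (16753 probes with 1 symbol, 165 with several, 16931 with none). Correlations between arrays were 0.969 to 0.979 within a strain and 0.964 to 0.977 between strains.

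The receptors and gene lists were chosen with earlier results of these data known. Named genes are all receptor probes, up to 2 genes per direction and list with an unadjusted p under 0.05, Th, Dbh and Slc6a2, and the 2 most correlated genes of 3 receptors. The fit was tested on simulated data. Figures used matplotlib 3.10.9. The number of arrays limits the precision.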

Additional observations from a re-analysis of the deposited data

How the results depend on the processing

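Other settings changed the normalization, the value source, the probe filter, the offset, limma's options, the threshold, or left out 1 array; per-sample intensities with an offset were added after seeing the data. Of 227 receptor values, 204 kept their direction and 23 turned. The probe filters and the intensity trend leave a probe's difference as it was, so those values could not turn. The same holds where the array left out was already missing at that probe. With unnormalized per-sample intensities, which shift the median of all probes to 0.12, Adra1d probe 136107 gave 0.096, Adra2a probe 98056 gave 0.064 and Adra2b probe 159080 gave 0.15. With the added setting they gave 0.089, 0.053 and 0.15. With median centring, Adra2a probe 177098 gave -0.053 and Adra2b probe 159080 gave 0.0058. With array weights, Adra2a probe 98056 gave 0.014. Leaving out single arrays gave -0.14 to 0.078 for Adra1d probe 136107, -0.19 to 0.068 for Adra2a probe 98056, -0.15 to 0.19 for Adra2a probe 177098, -0.11 to 0.037 for Adra2b probe 159080 and -0.70 to 0.58 for Adrb1. For Adra1a probe 85089, leaving out WKY 1 or WKY 3 left 1 WKY value, assumed to vary like SHR.

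The median receptor difference (0.015) was 0.15 unnormalized, 0.15 in the added setting, 0.091 with array weights, -0.036 without the dimmest 25% of probes (8 receptor probes) and 0.0026 to 0.098 without single arrays. Separated receptor probes were 2, and 3 with cyclic loess (Adra1b added), 1 with probes valid on all 6 arrays and 0 without the dimmest 25% of probes, since the first filter removes Adra1a probe 85089 and the second also Adra2b probe 120086. Probes past the threshold were 0, 1 with an offset of 50, 5 with probes valid on all 6 arrays, 18 without the dimmest 25%, 28 with an intensity trend and robust prior, 5 with array weights, 27 in the added setting, 6 with 1 probe per named gene and 13 at an adjusted p of 0.10. No receptor probe was among them at the 0.05 threshold, and the causes were not tested. Under a fit with a replicate block (the labels' numbers), 0 probes passed, the receptor median was 0.11 and Adrb1 gave 0.58. This fit left the differences of receptor probes valid on all 6 arrays unchanged. Adrb1 gave the value it had without WKY 2, because SHR 2 was missing, and its move shifted the receptor median. Deviations of same-numbered arrays correlated at -0.0017, 0.21 and -0.12, and those of the other pairs at -0.23 to 0.25. With 3 arrays per strain these values cannot decide whether the numbers pair the arrays. Dim spots limit the values of Adra1a, Adrb1, Adra2b probe 120086 and Adrb3 probe 53105.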
